A study of Mus musculus with 110 samples.

Results

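Polyamine metabolism and methionine salvage were followed through 10 genes chosen by name, Odc1, Amd1, Srm, Sms, Sat1, Smox, Paox, Mtap, Apip and Adi1, out of the 56884 genes of the count tables. Each was found as a single row, and all 10 passed the filter of at least 10 counts over the libraries in each of the 4 tissues. RNA was sequenced from liver, interscapular brown fat (iBAT), inguinal white fat (iWAT) and epididymal white fat (eWAT) of 28 male wild-type C57BL/6N mice, which were housed singly and 16 weeks old at the end. Each of 4 groups held 7 mice. Ctrl_RT mice ate a control diet of 0.86% methionine for 7 days at 22 °C, and MetR_RT mice ate a methionine-restricted diet of 0.12% methionine for the same time at the same temperature. Ctrl_CE and MetR_CE mice ate these diets and then spent an added day of 24 h at 4 °C. The methods give a slightly lower methionine content of the control diet than the series description, whose value is printed here. Both diets held 0% cysteine, so the controls received none either. Cold and the added day on the diet cannot be told apart.

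Polyamines (putrescine, spermidine and spermine) are small, positively charged molecules that bind nucleic acids and are needed for translation and growth. Ornithine decarboxylase makes putrescine, and spermidine synthase and spermine synthase each add an aminopropyl group taken from decarboxylated S-adenosylmethionine, a product of methionine. Each addition releases methylthioadenosine, which the salvage pathway turns back into methionine, and catabolism runs through acetylation and oxidation of spermidine and spermine.

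Positions are those of GENCODE M21 on GRCm38. Of the synthesis genes, Odc1 lies at chr12:17544794-17551505 on the plus strand, Amd1 at chr10:40287458-40302186 on the minus strand, Srm at chr4:148591503-148594993 on the plus strand and Sms at chrX:157443855-157492287 on the minus strand. Of the catabolic genes, Sat1 lies at chrX:155213132-155216449 on the minus strand, Smox at chr2:131491496-131525922 on the plus strand and Paox at chr7:140115799-140137224 on the plus strand. Of the salvage genes, Mtap lies at chr4:89137122-89181081, Apip at chr2:103073675-103092644 and Adi1 at chr12:28675231-28682175, all on the plus strand. Values are counts per gene, over all of its exons, and do not separate isoforms.

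Some of the genes have near-identical copies elsewhere, between which reads could be split. The transcript of Amd1 matched that of Amd2 at 99.6% identity over 3202 of 3204 bp, and the pseudogene Sms-ps matched Sms at 100% over 1101 bp. Copies of at least 95% identity held between 0.141% and 1.54% of the joint counts for Odc1, Amd1, Sat1 and Paox, and between 3.81% and 5.42% for Sms, depending on the tissue. No such copy was found for Srm, Smox, Mtap, Apip or Adi1. Exons of Paox overlap those of Echs1 by 142 bp on the opposite strand, and since the library kit did not mark strand, reads of that stretch cannot be told apart.

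The promoter windows of Odc1, Amd1 and Sat1 are shown because these 3 genes were higher in iBAT of cold-exposed mice, and cold is known to act on brown fat through cyclic AMP, whose transcription factors bind TGACG, the core of a longer palindrome. Each window runs from 250 bases before to 50 after the start site given by RefSeq on GRCm38.p6 and is written along the strand of the gene. The windows lie at chr12:17544623-17544922 for Odc1 on the plus strand, chr10:40302139-40302438 for Amd1 on the minus strand and chrX:155216400-155216699 for Sat1 on the minus strand. Capitals mark TGACG, or CGTCA where it lies on the other strand.
Odc1: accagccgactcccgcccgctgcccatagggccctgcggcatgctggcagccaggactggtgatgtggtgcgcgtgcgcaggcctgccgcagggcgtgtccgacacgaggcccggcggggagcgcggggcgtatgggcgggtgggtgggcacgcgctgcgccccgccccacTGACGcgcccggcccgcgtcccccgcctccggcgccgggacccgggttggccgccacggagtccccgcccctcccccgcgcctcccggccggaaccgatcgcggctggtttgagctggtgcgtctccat
Amd1: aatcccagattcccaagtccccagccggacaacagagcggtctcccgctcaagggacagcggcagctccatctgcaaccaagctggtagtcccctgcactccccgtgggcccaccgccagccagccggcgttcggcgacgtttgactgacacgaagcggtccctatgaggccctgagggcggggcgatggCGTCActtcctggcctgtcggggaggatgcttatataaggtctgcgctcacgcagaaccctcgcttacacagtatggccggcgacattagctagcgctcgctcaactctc
Sat1: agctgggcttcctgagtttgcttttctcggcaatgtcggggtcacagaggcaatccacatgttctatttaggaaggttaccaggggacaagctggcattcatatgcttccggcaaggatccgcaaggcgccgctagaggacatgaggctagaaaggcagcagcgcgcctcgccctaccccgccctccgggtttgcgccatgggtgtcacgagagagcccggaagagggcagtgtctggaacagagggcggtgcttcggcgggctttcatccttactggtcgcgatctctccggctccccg

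TGACG began 79 bases before the start site of Odc1 and 60 bases before that of Amd1, and neither strand of the Sat1 window held it. Of 32851 promoter windows of the same length, 20.8% held TGACG on either strand. The windows shown were picked by results of these data, and the part of cyclic AMP in the rises was not tested. It was not found in the windows of Sms, Smox, Paox, Mtap or Apip either. Also searched on both strands were the full site TGACGTCA, which contains TGACG and was in 1.79% of all windows, and the amino acid response element TGATGNAA, which was in 3.97%; neither was in a window of these genes. The E-box CACGTG, in 7.15% of all windows, was in 1 window of Sms. Srm and Adi1 had no entry.

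Total counts per library ran from 6987895 to 33444374. Of 110 libraries, 5 were left out (1 of iBAT, 4 of eWAT). The left-out eWAT libraries held 13788 to 18767 CPM (counts scaled to a common library total after TMM normalisation) of summed adipocyte markers against 20584 to 32930 CPM in the 24 used. Epididymis and accessory gland markers summed to 8054, 2.38 and 3806 CPM in the left-out Ctrl_RT libraries and 4.09 CPM in that of MetR_RT. The 24 used held up to 1291 CPM of them. For 3 iBAT libraries the treatment tag names another group than the title, and the title was used. The submitters' library names of these 3 carry the group of the title. A library titled Ctrl_CE is tagged MetR_RT, and for the others the tag changes the diet alone. Grouped by title, summed brown adipocyte markers of iBAT were at 14642 CPM or more in each Ctrl_CE library used. In MetR_RT they were at 11989 CPM or less. Hepatocyte markers summed to 47221 CPM or more in each liver library, and adipocyte markers to 8042 CPM or more in each fat library used but to 26.1 CPM or less in liver, where Ucp1 was at 0. Ucp1 stood at 2707 CPM in iWAT of Ctrl_CE against 160.3 CPM in Ctrl_RT, and Asns, a target of amino acid shortage, at 129 CPM in liver of MetR_RT against 32.3 CPM. In iWAT the sum of skeletal muscle markers ran from 2.45 to 20238 CPM, and that of macrophage markers from 1247 to 1978 CPM in Ctrl_RT but from 169 to 425 CPM in MetR_CE. In such bulk samples, fewer cells of a type and less RNA per cell cannot be told apart.

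In Ctrl_RT mice the genes spanned a wide range of levels, given here as CPM per kilobase of exon after joint normalisation of all 105 libraries. The length is that of all annotated exons of a gene together, 2774 bp for Sat1 and 1000 bp for Apip. The longest protein-coding transcript of Sat1 has 1162 bp, so ranks between genes, as of Sat1 beside Apip, can change with the length used. Adi1, the acireductone dioxygenase of salvage, stood first in liver at 94.8 ± 5.16 (SD, n = 7), well above Odc1 at 29.7 ± 7.04, Sat1 at 27.7 ± 3.33 and Srm at 24.6 ± 3.37, which lay within each other's spread. In iBAT the dehydratase Apip stood first at 30.7 ± 1.34 (SD, n = 6), before Sat1 at 20.02 ± 1.31 and Adi1 at 19.2 ± 0.632, which did not differ beyond their spread. Sat1 stood first in iWAT at 26.8 ± 3.74 and Apip next at 21.7 ± 0.979 (SD, n = 7). In eWAT, Apip at 21.8 ± 1.52 and Sat1 at 19.2 ± 2.6998 (SD, n = 4) lay within each other's spread.

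Sms, the spermine synthase, stood last in each tissue, between 0.536 ± 0.0662 in liver and 0.997 ± 0.0622 in iBAT. Smox, the spermine oxidase, came just above it in liver at 1.46 ± 0.25001 and in iBAT at 2.14 ± 0.5095. In iWAT Smox reached 5.396 ± 2.18, a range of 1 SD that included Amd1 at 3.51 ± 0.949 and Paox at 4.85 ± 0.844. Mtap, which opens salvage, had the most even level, from 7.66 ± 0.987 in iBAT to 8.74 ± 0.792 in liver. Levels were not tested between tissues.

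**Figure D1:**
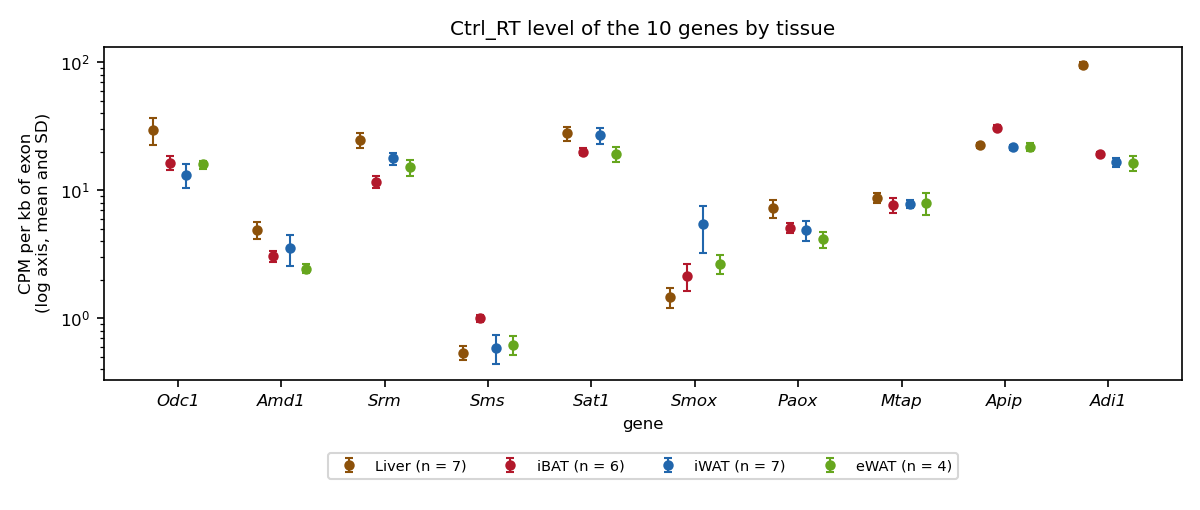
CPM per kilobase of exon (log axis) of the 10 genes in Ctrl_RT mice, by tissue, as mean and SD over 7 libraries in liver and iWAT, 6 in iBAT and 4 in eWAT. Adi1 in liver, at 94.8, is the highest point, and Sms, between 0.536 and 0.997, is the lowest gene in each tissue.

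In each tissue Ctrl_CE, MetR_RT and MetR_CE were compared with Ctrl_RT, the diet by temperature interaction was tested, and MetR_CE was compared with MetR_RT and with Ctrl_CE. A gene was called when its adjusted p in the edgeR quasi-likelihood test, with Benjamini-Hochberg adjustment over all genes of the tissue, was below 0.05. All adjusted p-values given without another tool are from this test. The comparisons with Ctrl_RT share their control libraries. Over 6 comparisons and 10 genes, 24 of 60 tests were called in iBAT, 14 in liver, 12 in iWAT and 3 in eWAT. These counts do not rank the tissues, because the share called over all genes also differed. In Ctrl_CE it was 33.2% in iBAT, 28.8% in liver, 30.8% in iWAT and 5.27% in eWAT. The 6 comparisons draw on the same 4 groups, so their calls are not separate. Changes of at least 1.5-fold were 1 call each in liver of MetR_CE against Ctrl_RT (beside 13.5% of all genes) and against Ctrl_CE (5.26%), 2 in iBAT of Ctrl_CE (14.7%), 1 each in iBAT of MetR_CE against Ctrl_RT (14.7%) and against MetR_RT (8.53%), 1 in iWAT of Ctrl_CE (15.9%), 2 in iWAT of MetR_CE (22.4%) and 1 in its interaction (1.65%). Odc1 had the most calls with 8, and Mtap the fewest with 2.

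In liver, 1 of 10 members were called in Ctrl_CE, where 28.8% of all 22143 genes tested were, and 1 of 10 in MetR_RT, where 18.8% were. MetR_CE gave 4 of 10 beside 30.3% of all genes. Against MetR_RT, MetR_CE gave 5 of 10 beside 18%, and against Ctrl_CE 3 of 10 beside 12.1%. The interaction gave 0 of 10 in edgeR beside 1.76%, with 3 members at an unadjusted p below 0.05 and 2 called by DESeq2.

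In iBAT, Ctrl_CE gave 7 of 10 members called, beside 33.2% of 23915 genes. Of these, 3 were higher and 4 lower, beside 15.3% and 17.9% of all genes. MetR_RT gave 1 of 10 beside 6.8%, and MetR_CE 6 of 10 beside 33.4%. MetR_CE against MetR_RT gave 6 of 10 beside 25.5%, MetR_CE against Ctrl_CE 3 of 10 beside 4.78%, and the interaction 1 of 10 beside 0.903%. The median log2 fold change in Ctrl_CE was -0.08 over the members and -0.08 over all genes.

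The median log2 fold change in iWAT of Ctrl_CE was -0.11 over all genes tested and 0.06 over the members, so a member at 0 lay above the median gene. In iWAT the counts were 2 of 10 in Ctrl_CE beside 30.8% of 26428 genes, 3 of 10 in MetR_RT beside 22.4%, 4 of 10 in MetR_CE beside 37% and 1 of 10 in the interaction beside 2.95%. MetR_CE against MetR_RT gave 2 of 10 beside 5.41%. Against Ctrl_CE it gave 0 of 10 in edgeR beside 3.37%, with 0 members at an unadjusted p below 0.05 and 0 called by DESeq2.

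The eWAT counts were 1 of 10 in Ctrl_CE beside 5.27% of 27786 genes and 2 of 10 in MetR_CE against Ctrl_CE beside 11.5%. Each of the other 4 comparisons gave 0 of 10 in edgeR. Beside them, 0.148% of all genes were called in MetR_RT, 2.7% in MetR_CE, 3.07% in the interaction and 0.223% in MetR_CE against MetR_RT. The members at an unadjusted p below 0.05 numbered 1, 4, 4 and 3 in this order, and DESeq2 called 0, 1, 1 and 1.

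**Figure D2:**
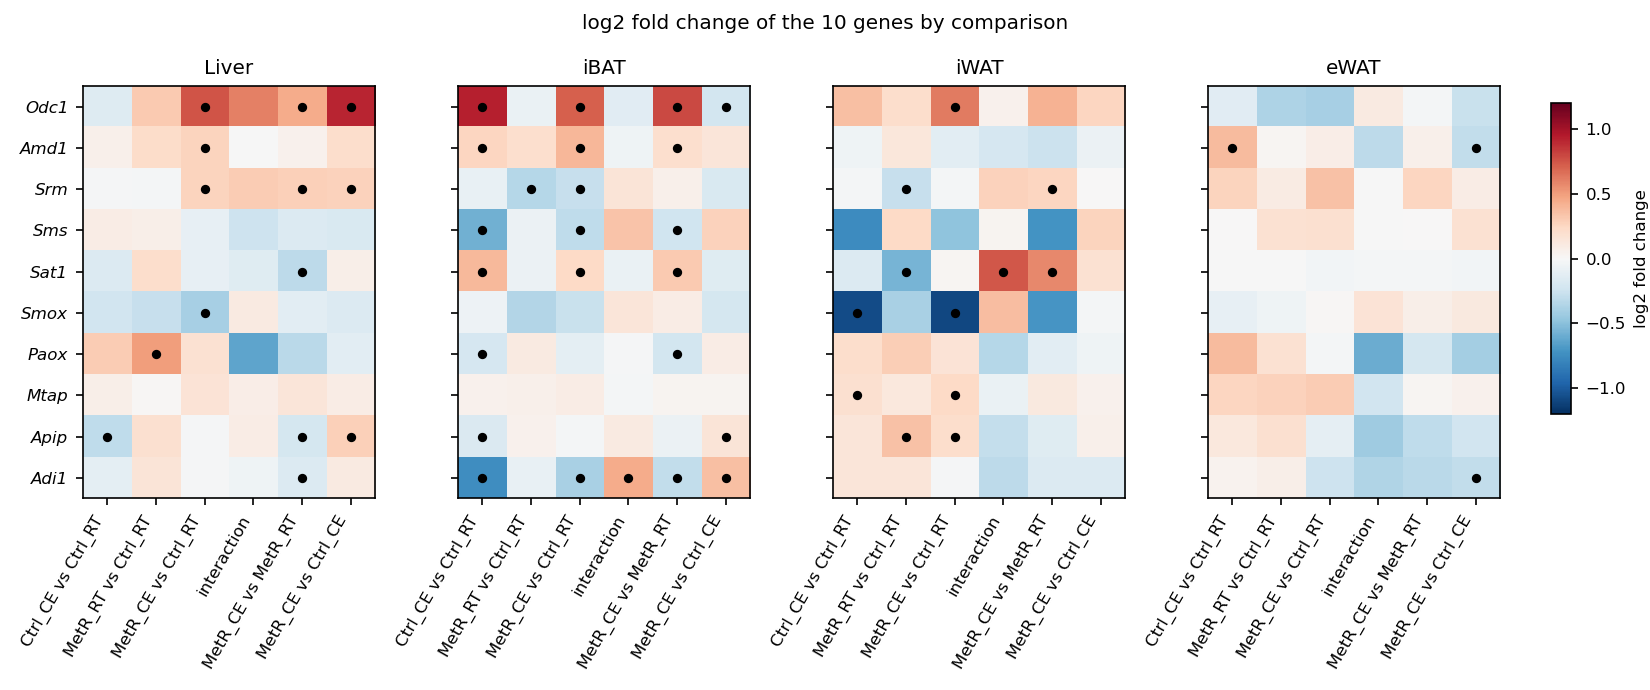
Log2 fold change (colour) of each of the 10 genes (rows) in the 6 comparisons (columns), with a panel per tissue; a black dot marks an adjusted p below 0.05. Odc1 in iBAT of Ctrl_CE (0.93) is the highest called value and Smox in iWAT of MetR_CE (-1.10) the lowest.

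Odc1, the ornithine decarboxylase that is known to limit synthesis, rose with cold in iBAT. Its CPM there ran from 42.5 over a median of 47.9 to 61.9 in Ctrl_RT and from 84.2 over 96.3 to 103 in Ctrl_CE (n = 6 each). It ran from 43.7 over 47.2 to 53.8 in MetR_RT and from 75.7 over 80.3 to 88.3 in MetR_CE (n = 7 each). Each cold library lay above each library at 22 °C. The log2 fold change was 0.93 ± 0.07 (SE) in Ctrl_CE (1.91-fold, adjusted p = 1.44e-11) and 0.71 ± 0.07 in MetR_CE (1.64-fold, adjusted p = 1.49e-09). MetR_CE exceeded MetR_RT by 0.79 ± 0.06 (adjusted p = 3.97e-10), while MetR_RT itself gave -0.08 ± 0.07 (adjusted p = 0.548). In the cold, the difference of MetR from the control diet was -0.22 ± 0.07 at an adjusted p of 0.0488, which was above 0.05 in 7 of the alternatives run, with -0.16 (adjusted p = 0.692) when groups followed the treatment tags. The summed brown adipocyte markers of iBAT had medians of 9425, 15109, 10444 and 16633 CPM in Ctrl_RT, Ctrl_CE, MetR_RT and MetR_CE. Of the 6 markers, 3 were called higher and 1 lower in Ctrl_CE, and 4 higher and 2 lower in MetR_CE. Within groups Odc1 went with this sum (r = 0.52, 26 libraries, a description), and the part of the sum in the rise was not tested.

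In liver, Odc1 was highest where diet and cold were combined. Its CPM ran from 50.4 over a median of 78.8 to 109 in Ctrl_RT, from 59.4 over 76.3 to 83.3 in Ctrl_CE, from 66.9 over 105 to 138 in MetR_RT and from 105 over 132 to 167 in MetR_CE (n = 7 each). MetR_CE lay above Ctrl_CE without overlap and overlapped both groups at 22 °C. The log2 fold change of MetR_CE was 0.76 ± 0.14 against Ctrl_RT (1.69-fold, adjusted p = 7.29e-05), 0.91 ± 0.14 against Ctrl_CE (1.89-fold, adjusted p = 3.99e-05) and 0.44 ± 0.14 against MetR_RT (1.36-fold, adjusted p = 0.0221). Ctrl_CE gave -0.16 ± 0.14 (adjusted p = 0.428) and MetR_RT 0.31 ± 0.14 (adjusted p = 0.116), the latter 0.40 (adjusted p = 0.0416) without Ctrl_RT replicate 7, which held the most bile duct markers. The interaction of 0.60 ± 0.19 had an adjusted p of 0.103 in edgeR, and DESeq2 gave 0.61 (adjusted p = 0.0454).

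In iWAT, Odc1 ran from 35.5 over a median of 53.9 to 66.1 CPM in Ctrl_RT, from 45.8 over 65.6 to 90.6 in Ctrl_CE, from 44.5 over 49.5 to 85.8 in MetR_RT (n = 7 each) and from 63.4 over 74.8 to 107 in MetR_CE (n = 6). The 4 groups overlapped. Odc1 was higher in MetR_CE by 0.62 ± 0.17 (1.54-fold, adjusted p = 0.00414), and 0.37 ± 0.16 in Ctrl_CE did not pass (adjusted p = 0.0896). The sum of macrophage markers moved with the groups, with medians of 1361, 578, 395 and 233 CPM in Ctrl_RT, Ctrl_CE, MetR_RT and MetR_CE. With that sum as a covariate, an alternative added after the data were seen, the difference of Odc1 in MetR_CE was -0.22 (adjusted p = 0.813), and 2 of the 12 calls of iWAT remained. Macrophage markers and the groups moved together, so their parts cannot be told apart. The summed brown adipocyte markers also moved with the groups, with medians of 314, 3285, 1798 and 4851 CPM in the same order and 6 of 6 called higher in each comparison with Ctrl_RT. Within groups Odc1 went with them (r = 0.56, 27 libraries, a description), and their part in its rise was not tested.

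In eWAT, the 4 Ctrl_RT libraries used held 64.3, 67.8, 72.9 and 77.04 CPM of Odc1. Ctrl_CE ran from 54.4 to 71.6 (median 66.5), MetR_RT from 43.4 to 69.3 (median 54.3) and MetR_CE from 42.8 to 63.4 (median 52.7). MetR_CE lay below Ctrl_RT without overlap. The log2 difference of -0.40 ± 0.11 missed the threshold in edgeR (adjusted p = 0.0502), and DESeq2 gave -0.40 (adjusted p = 0.0116). The 4 left-out libraries held 107 to 126 CPM of Odc1 when all eWAT libraries were normalised together, against 44.01 to 78.4 CPM in the 24 used.

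**Figure D3:**
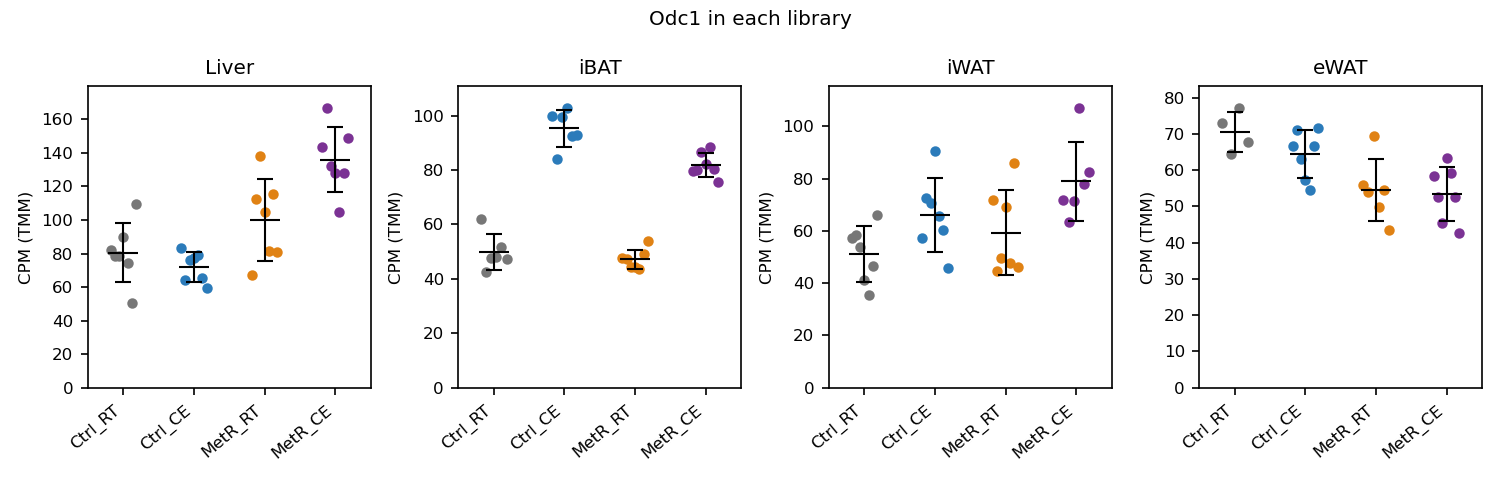
Normalised CPM of Odc1 in each library (points) by group, with the group mean and SD, in a panel per tissue with axes from 0. In iBAT the cold groups (75.7 to 103) lie above the groups at 22 °C (42.5 to 61.9), and in liver MetR_CE (105 to 167) lies above Ctrl_CE (59.4 to 83.3).

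Amd1 encodes the decarboxylase of S-adenosylmethionine that supplies the aminopropyl groups. In iBAT it ran from 8.29 over a median of 9.84 to 10.96 CPM in Ctrl_RT, from 10.4 over 11.6 to 12.7 in Ctrl_CE, from 10.2 over 10.95 to 12.1 in MetR_RT and from 12.04 over 12.4 to 13.6 in MetR_CE. MetR_CE lay above Ctrl_RT without overlap, and Ctrl_CE overlapped it. Amd1 was higher by 0.26 ± 0.07 in Ctrl_CE (1.197-fold, adjusted p = 0.00364), by 0.40 ± 0.07 in MetR_CE (1.32-fold, adjusted p = 1.87e-05) and by 0.20 ± 0.06 in MetR_CE against MetR_RT (adjusted p = 0.0177). The last was 0.18 (adjusted p = 0.108) with groups by the treatment tags and 0.18 (adjusted p = 0.0741) without the 3 libraries whose tags and titles differ. In liver, MetR_CE ran from 13.998 to 18.9 (median 17.3) CPM against 10.6 to 17.4 (median 14.002) in Ctrl_RT, with overlap and a difference of 0.27 ± 0.09 (1.204-fold, adjusted p = 0.0286), or 0.25 (adjusted p = 0.0567) without Ctrl_RT replicate 7.

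Amd1 gave 2 of the 3 calls of eWAT. The Ctrl_RT libraries held 9.89, 11.4, 11.6 and 12.1 CPM, while Ctrl_CE ran from 13.6 to 15.4 (median 14.7) and MetR_CE from 9.94 to 13.6 (median 12.4). Ctrl_CE lay above both, and no library of either reached it. The difference was 0.38 ± 0.11 against Ctrl_RT (1.299-fold, adjusted p = 0.04503), and MetR_CE differed from Ctrl_CE by -0.29 ± 0.09 (adjusted p = 0.0396). The summed brown adipocyte markers of eWAT had medians of 29.6, 48.7 and 24.5 CPM in Ctrl_RT, Ctrl_CE and MetR_CE, with 1 of 6 called higher in Ctrl_CE and 4 of 6 called lower in MetR_CE against Ctrl_CE. Deviations of Amd1 from the group means went with those of this sum (r = 0.75, 24 libraries, a description), and its part in the differences was not tested. Of 24 fits that each left out 1 library, 9 called the difference of Ctrl_CE from Ctrl_RT (log2 differences of 0.32 to 0.41, adjusted p up to 0.188) and 11 that of MetR_CE from Ctrl_CE (-0.33 to -0.26, adjusted p up to 0.0896). The former call was lost without any 1 of Ctrl_RT replicates 1, 3, 6 and 7, MetR_RT replicates 2 and 5, Ctrl_CE replicates 1, 2, 3, 5, 6 and 7, and MetR_CE replicates 2, 3 and 7. The latter was lost without any 1 of Ctrl_RT replicate 3, MetR_RT replicate 2, Ctrl_CE replicates 1, 2, 3, 5, 6 and 7, and MetR_CE replicates 2, 3, 5, 6 and 7. With all eWAT libraries the former was -0.03 (adjusted p = 0.931) and the latter -0.28 (adjusted p = 0.392). With a replicate block they were 0.40 (adjusted p = 0.0649) and -0.29 (adjusted p = 0.0752). The former was also lost with no filter (0.39, adjusted p = 0.0510) and with near copies summed (0.36, adjusted p = 0.0565). The left-out Ctrl_RT libraries held 15.2, 20.97 and 24.4 CPM of Amd1.

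Srm and Sms encode the synthases of spermidine and spermine. In iBAT, Srm ran from 13.8 over a median of 17.1 to 18.7 CPM in Ctrl_RT, from 14.2 over 15.4 to 17.8 in Ctrl_CE, from 12.2 over 13.2 to 14.6 in MetR_RT and from 12.7 over 14.04 to 14.7 in MetR_CE. Both MetR groups overlapped Ctrl_RT at its low end. The log2 fold change was -0.34 ± 0.07 in MetR_RT (0.7902-fold, adjusted p = 0.00196) and -0.28 ± 0.07 in MetR_CE (0.826-fold, adjusted p = 0.00173), and -0.09 ± 0.07 in Ctrl_CE did not pass (adjusted p = 0.338). With groups by the treatment tags the difference in MetR_RT was -0.23 (adjusted p = 0.0945).

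In iWAT, Srm ran from 26.9 over a median of 33.6 to 37.3 CPM in Ctrl_RT, from 25.01 over 25.6 to 33.2 in MetR_RT and from 29.03 over 31.5 to 36.3 in MetR_CE. In MetR_RT, 1 library stood apart at 33.2 CPM and the others lay between 25.0 and 26.6, below Ctrl_RT. Srm in MetR_RT differed from Ctrl_RT by -0.28 ± 0.07 (adjusted p = 0.00710), and MetR_CE from MetR_RT by 0.26 ± 0.08 (adjusted p = 0.0489), the latter 0.25 (adjusted p = 0.0726) without MetR_RT replicate 6. Without the libraries above 1000 CPM of skeletal muscle markers the values were -0.23 (adjusted p = 0.174) and 0.20 (adjusted p = 0.424), and with the macrophage sum as a covariate -0.21 (adjusted p = 0.457) and 0.30 (adjusted p = 0.0927). The fit without those libraries, also given below for other genes, kept 5 libraries of Ctrl_RT, 6 of Ctrl_CE, 4 of MetR_RT and 3 of MetR_CE. In it, smaller groups and less muscle cannot be told apart. In liver, Srm ran from 32.6 to 43.1 (median 38.03) CPM in MetR_CE, from 26.1 to 37.7 (median 32.2) in Ctrl_RT, from 26.2 to 35.9 (median 32.4) in Ctrl_CE and from 25.4 to 35.6 (median 31.7) in MetR_RT, with overlap. MetR_CE was higher than these 3 groups by 0.26 ± 0.09 (adjusted p = 0.0229), 0.28 ± 0.09 (adjusted p = 0.0326) and 0.29 ± 0.09 (adjusted p = 0.0215).

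Sms fell with cold in iBAT. It ran from 5.08 over a median of 5.23 to 5.91 CPM in Ctrl_RT, from 3.07 over 3.66 to 4.08 in Ctrl_CE, from 4.52 over 4.91 to 5.62 in MetR_RT and from 3.90 over 4.404 to 4.93 in MetR_CE, on 49 counts or more per library. Both cold groups lay below Ctrl_RT without overlap. The log2 fold change was -0.58 ± 0.09 in Ctrl_CE (0.6695-fold, adjusted p = 7.67e-06) and -0.31 ± 0.09 in MetR_CE (0.809-fold, adjusted p = 0.00647), the latter -0.25 (adjusted p = 0.0584) by the treatment tags. MetR_CE against MetR_RT gave -0.24 ± 0.08 at an adjusted p of 0.0388, above 0.05 in 7 of the alternatives run, the highest -0.18 (adjusted p = 0.2599) by the treatment tags. In liver, where a library held as few as 20 counts of Sms, no comparison was called.

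Sat1, the acetyltransferase that opens catabolism, rose with cold in iBAT. Its CPM ran from 46.1 over a median of 49.6 to 53.4 in Ctrl_RT, from 61.2 over 64.4 to 73.1 in Ctrl_CE, from 41.4 over 47.7 to 50.5 in MetR_RT and from 51.9 over 57.3 to 69.04 in MetR_CE. Ctrl_CE lay above Ctrl_RT, and MetR_CE above MetR_RT, without overlap. The log2 fold change was 0.39 ± 0.06 in Ctrl_CE (1.31-fold, adjusted p = 1.75e-05), 0.24 ± 0.06 in MetR_CE (1.18-fold, adjusted p = 0.00281) and 0.31 ± 0.06 in MetR_CE against MetR_RT (adjusted p = 0.000197).

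In iWAT, Sat1 was lower in MetR_RT, and the difference between the diets depended on the temperature. It ran from 69.8 over a median of 89.6 to 97.7 CPM in Ctrl_RT, from 44.5 over 58.2 to 69.2 in MetR_RT, from 55.8 over 77.4 to 91.1 in Ctrl_CE and from 65.4 over 79.3 to 123 in MetR_CE. MetR_RT lay below Ctrl_RT without overlap. The log2 difference of MetR_RT from Ctrl_RT was -0.56 ± 0.12 (0.679-fold, adjusted p = 0.00164), and MetR_CE was above MetR_RT by 0.58 ± 0.13 (adjusted p = 0.00944). The interaction was 0.74 ± 0.18 (adjusted p = 0.0257), and in the cold MetR_CE differed from Ctrl_CE by 0.18 ± 0.13 (adjusted p = 0.473). With the macrophage sum as a covariate the diet difference was -0.29 (adjusted p = 0.524). Without the libraries above 1000 CPM of muscle markers the interaction was larger at 1.04 but not called (adjusted p = 0.103), on 3 to 6 libraries per group.

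In liver, Sat1 ran from 54.2 to 65.2 (median 56.5) CPM in MetR_CE and from 63.4 to 79.7 (median 68.2) in MetR_RT, with overlap and a difference of -0.31 ± 0.10 (adjusted p = 0.0229). In eWAT, Sat1 was not called in any of the 6 comparisons. Over the 24 eWAT libraries its deviations from the group means went with those of the epididymis and accessory gland markers (r = 0.69, a description over libraries that share their normalisation). The highest library, MetR_RT replicate 2, held 118 CPM of Sat1 and 1268 CPM of these markers, and a left-out Ctrl_RT library held 433 CPM of Sat1. The part of these markers in the level of Sat1 was not tested.

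Smox and Paox encode the oxidases of spermine and of acetylated polyamines. In iWAT, Smox ran from 12.8 over a median of 20.98 to 36.6 CPM in Ctrl_RT, from 7.53 over 12.4 to 14.3 in Ctrl_CE, from 9.52 over 12.3 to 51.4 in MetR_RT and from 7.18 over 10.8 to 17.2 in MetR_CE. The cold groups overlapped the low end of Ctrl_RT. Smox fell in both, with a log2 fold change of -1.07 ± 0.32 in Ctrl_CE (0.476-fold, adjusted p = 0.0115) and -1.10 ± 0.33 in MetR_CE (0.468-fold, adjusted p = 0.0105), and -0.39 ± 0.31 in MetR_RT did not pass (adjusted p = 0.419).

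A single iWAT library, MetR_RT replicate 6, held both the most skeletal muscle markers (20238 CPM) and the most Smox (51.4 CPM), Amd1 (41.1 CPM) and Sms (15.7 CPM) of its tissue. Without it, Smox in MetR_RT was -0.89 (adjusted p = 0.00994) and Sms in Ctrl_CE was -0.75 (adjusted p = 0.0219), against -0.75 ± 0.37 (adjusted p = 0.125) with it. Over the 27 libraries, deviations from the group means of the muscle sum went with those of Smox (r = 0.75), Sms (r = 0.72) and Amd1 (r = 0.50), as a description. Without the libraries above 1000 CPM of these markers, Smox was -0.87 (adjusted p = 0.0102) in Ctrl_CE and -1.08 (adjusted p = 0.00869) in MetR_CE. With the macrophage sum as a covariate it was -0.86 (adjusted p = 0.205) and -0.65 (adjusted p = 0.752).

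**Figure D4:**
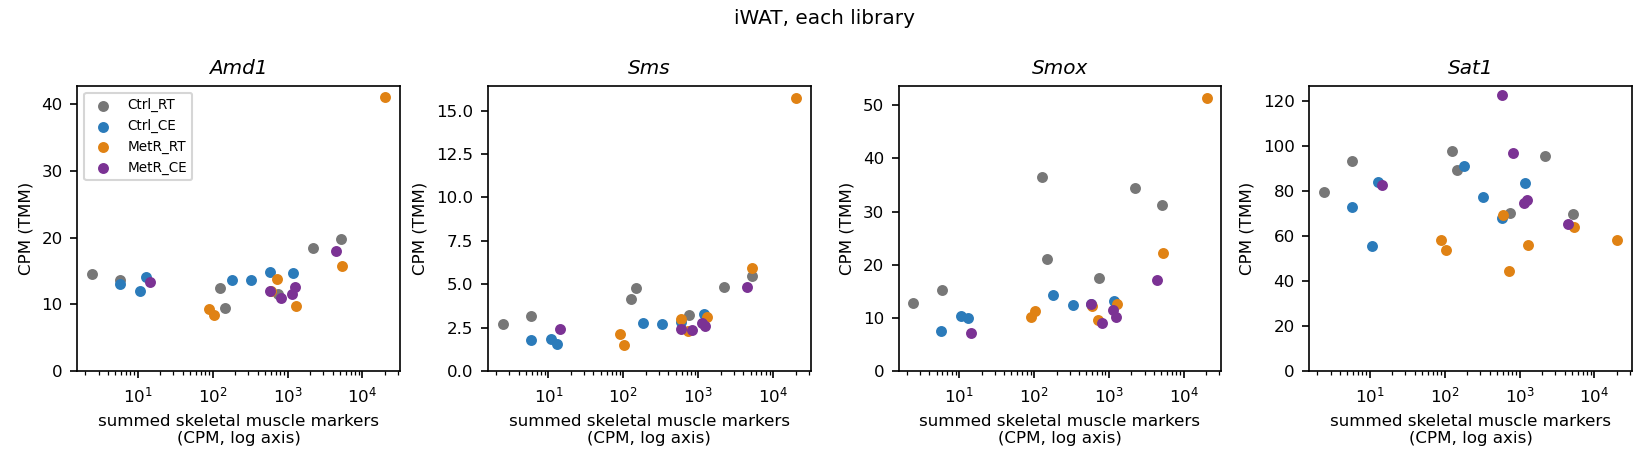
Normalised CPM of Amd1, Sms, Smox and Sat1 (y axes from 0) in the 27 iWAT libraries against the summed CPM of 6 skeletal muscle markers (log axis), coloured by group. The library at 20238 CPM of muscle markers is the highest for Amd1 (41.1), Sms (15.7) and Smox (51.4), but not for Sat1.

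In liver, Smox ran from 2.603 to 4.12 (median 3.53) CPM in MetR_CE and from 4.01 to 6.297 (median 4.13) in Ctrl_RT, with overlap and a difference of -0.40 ± 0.13 (0.7599-fold, adjusted p = 0.0226). Paox in liver ran from 22.3 over a median of 27.5 to 35.4 CPM in Ctrl_RT, from 28.3 over 44.4 to 49.6 in MetR_RT, from 28.3 over 35.4 to 40.2 in Ctrl_CE and from 25.6 over 31.8 to 37.4 in MetR_CE. The groups overlapped. Paox rose in MetR_RT by 0.50 ± 0.12 (1.42-fold, adjusted p = 0.00343). The interaction of -0.63 ± 0.17 had an adjusted p of 0.0523 in edgeR, and DESeq2 gave -0.62 (adjusted p = 0.0189).

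In iBAT, Paox ran from 19.8 over a median of 21.9 to 24.7 CPM in Ctrl_RT, from 18.03 over 19.2 to 21.5 in Ctrl_CE, from 20.8 over 22.6 to 28.1 in MetR_RT and from 17.8 over 20.4 to 21.99 in MetR_CE. These ranges overlapped, with the cold groups lower. The difference was -0.20 ± 0.07 in Ctrl_CE against Ctrl_RT (adjusted p = 0.02702) and -0.22 ± 0.07 in MetR_CE against MetR_RT (adjusted p = 0.0129).

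Adi1 had the largest change among Mtap, Apip and Adi1. In iBAT it ran from 30.3 over a median of 32.8 to 33.2 CPM in Ctrl_RT, from 17.2 over 20.1 to 20.5 in Ctrl_CE, from 28.6 over 30.2 to 32.2 in MetR_RT and from 20.2 over 24.7 to 28.7 in MetR_CE. Both cold groups lay below Ctrl_RT without overlap, and they overlapped each other. The log2 fold change was -0.75 ± 0.07 in Ctrl_CE (0.596-fold, adjusted p = 4.23e-10), -0.39 ± 0.06 in MetR_CE (0.764-fold, adjusted p = 1.41e-05) and -0.30 ± 0.06 in MetR_CE against MetR_RT (adjusted p = 0.000387).

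The fall of Adi1 with cold in iBAT was smaller on MetR, by an interaction of 0.45 ± 0.09 (adjusted p = 0.0121), and MetR_CE exceeded Ctrl_CE by 0.36 ± 0.06 (adjusted p = 0.00125). With groups by the treatment tags these were 0.39 (adjusted p = 0.338) and 0.23 (adjusted p = 0.359), and MetR_CE against MetR_RT was -0.25 (adjusted p = 0.0899). In liver, Adi1 ran from 137 to 158 (median 140.1) CPM in MetR_CE and from 146 to 171 (median 157) in MetR_RT, with overlap. The difference was -0.16 ± 0.06 (adjusted p = 0.0452), or -0.15 (adjusted p = 0.0657) without Ctrl_RT replicate 7. It was -0.15 (adjusted p = 0.0518) with RLE factors and -0.16 (adjusted p = 0.0766) with no filter. In eWAT, Adi1 ran from 30.9 to 37.8 (median 34.03) CPM in MetR_CE and from 33.1 to 49.8 (median 40.5) in Ctrl_CE, also with overlap. That difference of -0.29 ± 0.09 (adjusted p = 0.0429) was called in 11 of 24 fits that left out 1 library (-0.35 to -0.26, adjusted p up to 0.0967). It was lost without any 1 of Ctrl_RT replicates 1 and 3 and MetR_RT replicate 2. The same held for Ctrl_CE replicates 1, 2, 5, 6 and 7 and MetR_CE replicates 3 to 7. It was also lost with no filter (-0.30, adjusted p = 0.0571), with a replicate block (-0.29, adjusted p = 0.0687) and with all eWAT libraries (-0.28, adjusted p = 0.244). Brown adipocyte markers moved the same way between these groups, with medians of 48.7 CPM in Ctrl_CE and 24.5 CPM in MetR_CE (r = 0.56 with Adi1 within groups), and their part was not tested.

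**Figure D5:**
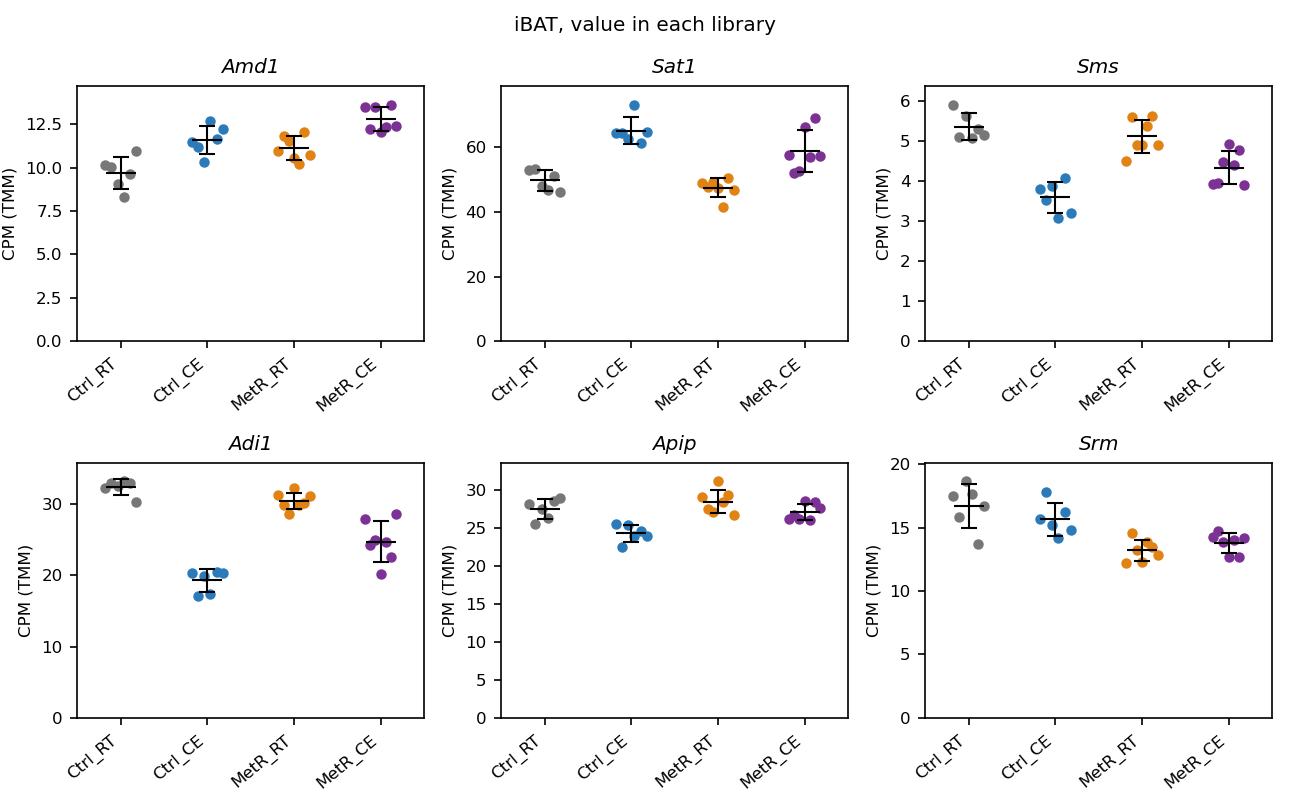
Normalised CPM in iBAT of Amd1, Sat1, Sms, Adi1, Apip and Srm in each library (points) by group, with the group mean and SD and axes from 0. Adi1 in Ctrl_CE (17.2 to 20.5) lies below both groups at 22 °C (28.6 to 33.2), and Sat1 in Ctrl_CE (61.2 to 73.1) lies above them (41.4 to 53.4).

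Apip, the dehydratase before Adi1 in the pathway, ran in liver from 16.9 over a median of 17.8 to 19.3 CPM in Ctrl_RT, from 12.9 over 14.3 to 16.9 in Ctrl_CE, from 18.4 over 19.4 to 24.8 in MetR_RT and from 14.3 over 17.3 to 21.03 in MetR_CE. Ctrl_CE met Ctrl_RT at the ends of their ranges. Apip fell in Ctrl_CE by a log2 fold change of -0.30 ± 0.08 (0.811-fold, adjusted p = 0.00304). MetR_CE exceeded Ctrl_CE by 0.28 ± 0.08 (adjusted p = 0.0117). It differed from MetR_RT by -0.21 ± 0.08, at an adjusted p just under 0.05 that was above it in 6 of the alternatives run, among them -0.20 (adjusted p = 0.0603) without Ctrl_RT replicate 7.

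In iBAT, Apip ran from 25.6 to 28.9 (median 27.8) CPM in Ctrl_RT, from 22.5 to 25.5 (median 24.3) in Ctrl_CE and from 26.01 to 28.6 (median 26.8) in MetR_CE. Ctrl_CE lay below both without overlap. It differed from Ctrl_RT by -0.18 ± 0.05 (adjusted p = 0.00475), and MetR_CE exceeded it by 0.16 ± 0.05 (adjusted p = 0.0493, above 0.05 in 7 of the alternatives run). In iWAT, Apip ran from 23.8 to 26.8 (median 24.9) CPM in Ctrl_RT, from 28.6 to 35.4 (median 31.9) in MetR_RT and from 22.9 to 31.6 (median 29.4) in MetR_CE. MetR_RT lay above Ctrl_RT without overlap. Apip rose by 0.35 ± 0.07 in MetR_RT (1.27-fold, adjusted p = 0.000852) and by 0.21 ± 0.07 in MetR_CE (adjusted p = 0.0303), and with the macrophage sum as a covariate the values were 0.25 (adjusted p = 0.334) and 0.05 (adjusted p = 0.938). Without the libraries above 1000 CPM of muscle markers, Apip in MetR_CE was 0.14 (adjusted p = 0.361).

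Mtap, the phosphorylase of methylthioadenosine, was called in iWAT alone. It ran from 25.6 over a median of 29.2 to 31.6 CPM in Ctrl_RT, from 31.3 over 33.5 to 35.2 in Ctrl_CE and from 33.3 over 34.5 to 34.98 in MetR_CE. MetR_CE lay above Ctrl_RT without overlap, and Ctrl_CE overlapped it. The log2 fold change was 0.20 ± 0.06 in Ctrl_CE (1.15-fold, adjusted p = 0.0122) and 0.24 ± 0.06 in MetR_CE (1.18-fold, adjusted p = 0.00225). With the macrophage sum as a covariate these were 0.19 (adjusted p = 0.108) and 0.24 (adjusted p = 0.394), and without the libraries above 1000 CPM of muscle markers the former was 0.15 (adjusted p = 0.0819).

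Whether a response differed between tissues was tested as a difference of log2 fold changes in 1 edgeR fit over all 105 libraries, for Ctrl_CE and MetR_RT against Ctrl_RT and 3 pairs of tissues. Of 60 tests 13 were called. In Ctrl_CE, 4 of 10 members were called for liver minus iWAT beside 19% of 32143 genes, 5 of 10 for iBAT minus iWAT beside 12.9%, and 1 of 10 for iWAT minus eWAT beside 6.86%. In MetR_RT each pair had 1 of 10, beside 12.6%, 6.09% and 5.27% in this order.

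This fit over all tissues had no marker covariate. Summed macrophage markers had medians of 1361, 578 and 395 CPM in iWAT of Ctrl_RT, Ctrl_CE and MetR_RT. In eWAT they were 477, 445 and 379 CPM. Their part in the differences was not tested. With that sum as a covariate in iWAT alone, Sat1 in MetR_RT was -0.29 (adjusted p = 0.524) and Smox in Ctrl_CE -0.86 (adjusted p = 0.205). Sat1 gave the called differences in MetR_RT, where its response in iWAT lay below that of the other tissues. The difference was 0.80 ± 0.16 (adjusted p = 7.96e-05) for liver minus iWAT, 0.50 ± 0.16 (adjusted p = 0.0455) for iBAT minus iWAT and -0.56 ± 0.17 (adjusted p = 0.0393) for iWAT minus eWAT. Smox responded more negatively to cold in iWAT, with 0.88 ± 0.30 (adjusted p = 0.0249) for liver minus iWAT, 1.02 ± 0.30 (adjusted p = 0.0108) for iBAT minus iWAT and -0.98 ± 0.31 (adjusted p = 0.0355) for iWAT minus eWAT.

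For iBAT minus iWAT, the response to cold also differed for Adi1 by -0.89 ± 0.12 (adjusted p = 9.08e-09), for Odc1 by 0.58 ± 0.19 (adjusted p = 0.0257), for Sat1 by 0.56 ± 0.16 (adjusted p = 0.0118) and for Apip by -0.31 ± 0.11 (adjusted p = 0.0469). For liver minus iWAT it differed for Apip by -0.40 ± 0.11 (adjusted p = 0.00306), for Odc1 by -0.48 ± 0.18 (adjusted p = 0.0484) and for Sms by 0.88 ± 0.31 (adjusted p = 0.0349). The tissues came from the same mice, and the correlation of libraries from 1 mouse was 0.0328 in a limma fit with the mouse as a block. In that fit the liver minus iWAT differences in the cold of Odc1, -0.44 (adjusted p = 0.0920), and of Smox, 0.85 (adjusted p = 0.0916), did not pass. With all 110 libraries 7 differences were called, and those of Sat1 in MetR_RT had adjusted p-values of 0.0638, 0.516 and 0.846, the last with the sign reversed.

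Other genes of the pathways were counted from lists, and named where they changed by at least 1.5-fold in Ctrl_CE or MetR_RT. Beside the counts, 14.7% of all genes rose and 14.2% fell in liver of Ctrl_CE, 10.1% rose and 8.7% fell in liver of MetR_RT, 15.3% rose and 17.9% fell in iBAT of Ctrl_CE, and 14.6% rose and 16.2% fell in iWAT of Ctrl_CE. With lists of 2 to 8 genes, nothing particular to a list is read from its count. Of the remaining salvage enzymes (Mri1, Enoph1, Got1 and Kyat1), 1 of 4 rose and 1 fell in liver of Ctrl_CE, 3 rose and 0 fell in liver of MetR_RT, 1 rose and 2 fell in iBAT of Ctrl_CE, and 2 rose and 0 fell in iWAT of Ctrl_CE. Got1, an aspartate aminotransferase, rose in iBAT of Ctrl_CE from 28.3 to 142 CPM (2.32 ± 0.13, adjusted p = 1.28e-13), in iWAT from 11.3 to 34.8 CPM (1.62 ± 0.33, adjusted p = 0.000519) and in liver from 205 to 412 CPM (1.01 ± 0.16, adjusted p = 1.21e-05), each without overlap. Kyat1, a kynurenine aminotransferase, fell in liver of Ctrl_CE from 299 to 188 CPM (-0.67 ± 0.13, adjusted p = 0.000143), with overlap.

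Among 5 antizymes and antizyme inhibitors, which control the stability of ornithine decarboxylase, 1 rose in liver of Ctrl_CE (beside 14.7% of all genes), 2 in iBAT (15.3%) and 3 in iWAT (14.6%), and 0 fell. Hypusination of eIF5A is the modification that uses spermidine. Of its 4 genes, 2 rose and 1 fell in iBAT of Ctrl_CE. In iWAT 2 rose and 0 fell, and in liver 0 rose and 1 fell. Of the paralogs Amd2 and Sat2, 1 fell in iBAT of Ctrl_CE, namely Sat2 from 3.12 to 1.93 CPM (-0.68 ± 0.19, adjusted p = 0.00456). In liver of Ctrl_CE, 0 of the paralogs rose and 1 fell.

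Of 5 polyamine transport genes tested in iBAT, 4 rose and 1 fell in Ctrl_CE (beside 15.3% and 17.9% of all genes). Slc3a2, the heavy chain of several amino acid carriers, rose there from 58.3 to 152 CPM (1.39 ± 0.11, adjusted p = 2.98e-11) and in liver of MetR_RT from 43.7 to 123 CPM (1.49 ± 0.13, adjusted p = 7.57e-10), both without overlap. Slc12a8, of the same list, fell in iWAT of Ctrl_CE from 1.09 to 0.525 CPM (adjusted p = 0.009802). Of 8 genes that supply ornithine and S-adenosylmethionine, 6 were tested in iBAT and in iWAT. In Ctrl_CE, 1 rose and 2 fell in iBAT, and 2 rose and 2 fell in iWAT. In MetR_RT, 0 rose and 1 fell in iBAT (beside 2.9% and 3.9% of all genes). There 1 rose and 1 fell in iWAT (11% and 11.5%). In liver, 5 of 8 rose and 0 fell in MetR_RT, and 3 rose and 0 fell in Ctrl_CE. The S-adenosylmethionine synthetase Mat1a rose there from 3090.4 to 4661 CPM in MetR_RT (0.59 ± 0.16, adjusted p = 0.00821) and to 5609.5 CPM in Ctrl_CE (0.86 ± 0.16, adjusted p = 0.000134). Oat, the ornithine aminotransferase, rose in liver of Ctrl_CE from 472 to 809.9 CPM without overlap (0.78 ± 0.11, adjusted p = 3.1e-06). Arg1, the arginase, fell in iWAT of MetR_RT from 3.605 to 0.128 CPM (adjusted p = 0.0005303), a low level. The summed macrophage markers fell in the same comparison, from a median of 1361 to 395 CPM with 6 of 6 called lower, and their part was not tested. No gene of these lists was called in eWAT in either comparison.

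Within groups, deviations of the 10 genes from the group means were correlated over their 45 pairs, as a description over 24 to 28 libraries that share their normalisation. The coefficients ran from -0.40 to 0.51 for liver, from -0.51 to 0.36 for iBAT, from -0.46 to 0.88 for iWAT and from -0.88 to 0.80 for eWAT. Pairs at 0.7 or more were those among Amd1, Sms and Smox in iWAT (r = 0.73 to 0.88), where all 3 went with the muscle markers, and in eWAT Paox with Adi1 (r = 0.80), Paox with Apip (r = 0.77) and Sat1 with Smox (r = 0.70). In eWAT, Smox and Mtap went opposite ways (r = -0.88), and the sum of skin and mammary epithelium markers went with Smox (r = 0.76) and against Mtap (r = -0.75).

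For the 2 members with the most calls of at least 1.5-fold, the most similar genes were listed by Pearson correlation over the 16 means of log2 CPM by tissue and group, each centred on its tissue, among 11144 genes. Most like Odc1 were Agpat5 (r = 0.94), Adsl (r = 0.91) and Slc9a8 (r = 0.89). Most like Smox were S100a6 (r = 0.94), Fndc4 (r = 0.92) and Cnpy4 (r = 0.92). The 16 means come from shared mice, and the likeness is a description.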

How the data were processed

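Whole-number counts per gene were used as the authors deposited them, with 1 table for liver, 1 for eWAT and 1 for iBAT and iWAT together. Poly(A) libraries were made with a kit that does not mark strand and read as 50 bp pairs. The submitters' processing notes name STAR 2.7.9a, featureCounts 2.0.3, Salmon 1.9.0, MultiQC 1.19, DESeq2 1.46.0 and mm10, and the methods GENCODE vM25 with up to 10 alignments per read. The tables are named for Salmon but hold whole numbers, and whether they were rounded is not given in the sources used here. Reads aligned to several places can move counts between near-identical copies.

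Groups came from the sample titles. Of 110 libraries, 105 were used. The methods give how many were left out per group, and which ones was found by matching the mean normalised counts of the source data over 8 subsets in iBAT and 246 in eWAT (median deviation 0.251% and 0.151% for the best, 1.15% and 0.775% for the next). They were iBAT Ctrl_CE replicate 5, eWAT Ctrl_RT replicates 2, 4 and 5, and eWAT MetR_RT replicate 7. The methods give 7 mice per group, so the libraries of a group and tissue are separate mice. Gene names matched 51948 of 56884 identifiers, and 0 columns of sample values were unused. No libraries were duplicates within counting noise.

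Genes with at least 10 counts in total were tested in each tissue by edgeR 4.0.16 in R 4.3.3 (quasi-likelihood, TMM). The SE is the log2 fold change divided by the square root of F. Alternatives were RLE factors, DESeq2 1.42.0 with and without apeglm 1.24.0, other filters, a robust fit, a replicate block, other sets of libraries and marker covariates, with limma 3.58.1 for the mouse block. Near copies were found with blastn 2.17.0. The comparison of Ctrl_CE with Ctrl_RT in each tissue was checked on simulated data, and the other comparisons were not. The members and lists were chosen with earlier results of these data known. Pathway genes were named where they passed the test and 1.5-fold in MetR_RT or Ctrl_CE in at least 1 tissue, and the genes most like a member were listed for the 2 members with the most calls of that size.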

Additional observations from a re-analysis of the deposited data

Results flagged for a closer look

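In 10 of 160 groups of 4 to 7 libraries, 1 library stood apart from the others in CPM, and chance gives about 1 in 20 groups. In liver these were Adi1 in MetR_CE replicate 5 (158, others 137 to 141), Sat1 in MetR_CE replicate 7 (65.2, others 54.2 to 58.1) and Sms in MetR_RT replicate 5 (2.13, others 2.69 to 2.89). In iBAT they were Adi1 in Ctrl_RT replicate 6 (30.3, others 32.3 to 33.2), Sat1 in Ctrl_CE replicate 4 (73.1, others 61.2 to 64.7) and Sat1 in MetR_RT replicate 5 (41.4, others 46.8 to 50.5). In iWAT they were Amd1 in MetR_RT replicate 6 (41.1, others 8.36 to 15.7), which also held the most skeletal muscle markers, Sms in MetR_CE replicate 6 (4.84, others 2.38 to 2.76) and Srm in MetR_RT replicate 2 (33.2, others 25.0 to 26.6). In eWAT it was Sat1 in MetR_RT replicate 2 (118, others 49.7 to 67.9).

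A response that differed between groups was found in 15 tests. The diet by temperature interaction was 0.45 for Adi1 in iBAT and 0.74 for Sat1 in iWAT on the log2 scale. Between tissues, the response to MetR_RT differed for Sat1 by 0.80 for liver minus iWAT, 0.50 for iBAT minus iWAT and -0.56 for iWAT minus eWAT. The response to Ctrl_CE differed for liver minus iWAT by -0.48 for Odc1, 0.88 for Sms, 0.88 for Smox and -0.40 for Apip. For iBAT minus iWAT it differed by 0.58 for Odc1, 0.56 for Sat1, 1.02 for Smox, -0.31 for Apip and -0.89 for Adi1, and for iWAT minus eWAT by -0.98 for Smox.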

How the results depend on the processing

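Of 66 called tests, 39 were called under each alternative planned, leaving out single libraries aside. The calls numbered 12 to 18 in liver (14 as reported), 20 to 26 in iBAT (24) and 9 to 14 in iWAT (12), except for the settings named here. With groups by the treatment tags iBAT gave 15, and with macrophage markers as a covariate iWAT gave 2. In eWAT, which had 3, RLE factors gave 6, DESeq2 8, filterByExpr 6, no filter 1 and a robust fit 5. Leaving out 1 library gave 0 to 7 in eWAT. With apeglm the adjusted p-values are those of DESeq2, so its calls are the same by design. At 1.5-fold or more, 2, 4, 4 and 0 were left in liver, iBAT, iWAT and eWAT. Differences between tissues numbered 13 as reported, 12 to 14 under other settings and 7 with all libraries. Directions reversed for Amd1 in eWAT of Ctrl_CE with all libraries (-0.026, adjusted p = 0.931), for Sat1 in iWAT minus eWAT of MetR_RT with all libraries (0.22, adjusted p = 0.846) and for Odc1 in iWAT of MetR_CE with the macrophage covariate (-0.22, adjusted p = 0.813). The cause was not tested. With the replicate number as a block, the calls numbered 12 for liver, 20 for iBAT, 11 for iWAT and 0 for eWAT, and same-numbered libraries, which came from different mice, had mean correlations of -0.012, -0.013, 0.059 and 0.135. Low counts limit Sms in liver.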
